A study of Homo sapiens with 16 samples.

Results

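Fatty acid oxidation genes were followed by sequencing of polyadenylated RNA from DU145, an established line of human prostate cancer cells. The 30 genes are a listed set that covers the carnitine shuttle and the mitochondrial and peroxisomal enzymes of beta-oxidation; they were chosen by name, and each was matched to 1 of the 64792 gene identifiers in the table of read counts. The 16 libraries fall into 4 groups of 4 replicates: untreated control, lactate alone, I-BET762 alone, and the combination of lactate with I-BET762. The inhibitor I-BET762 binds the bromodomains by which BET proteins recognise acetylated lysines on histones. All groups carry the same line name, the labels mention no engineered allele, they give neither a dose nor a duration, and the cell line entries of the 4 combination samples read DU146 to DU149 where the titles, which were followed, read DU145. The series title places the comparisons in work on how lactate bears on lipid metabolism and chromatin in prostate cancer.

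Beta-oxidation shortens fatty acids in repeated rounds and hands electrons to the respiratory chain. Long acyl chains enter mitochondria as carnitine esters. CPT1A or CPT1B on the outer membrane makes the ester, SLC25A20 carries it across the inner membrane, and CPT2 returns the chain to coenzyme A. An acyl-CoA dehydrogenase that fits the chain length then opens each round, a hydratase, a hydroxyacyl-CoA dehydrogenase and a thiolase finish it, and electron transfer flavoprotein (ETFA and ETFB) takes the electrons of the dehydrogenases to ETFDH. Peroxisomes run a parallel route for very long and branched chains. In prostate tumours, fatty acids are regarded as an important fuel beside a comparatively low uptake of glucose.

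Total counts per library lay between 10711859 (lactate replicate 1) and 17173584. The 5 epithelial markers (KRT8, KRT18, KRT19, EPCAM and CDH1) were present in every library, with summed levels of 1900 to 3350 CPM (read counts of a gene scaled to a common library size). The 5 leukocyte markers summed to 0.854 to 2.35 CPM in control and 2.68 to 3.56 CPM with lactate, with CD3E at 0 throughout. CD68 of this list had 6 to 8 counts per library in control and 8 to 21 with lactate, and PTPRC had 0 or 1 throughout. The 6 fibroblast markers summed to 3.42 to 4.19 CPM in control, 4.47 to 8.78 with lactate and 5.09 to 10.2 with both, with DCN at 0 throughout. With lactate 4 of the 10 tested markers of all lists were called higher, beside 13.6% of all tested genes. They were the epithelial KRT19 (log2 fold change 0.76) and KRT8 (0.49), CD68 (1.12) of the leukocyte list and COL1A1 (0.82) of the fibroblast list. The part of these differences in the results below was not tested. Luminal prostate markers summed to 24.5 to 41.4 CPM, with KLK3 at 0 or 1 count per library. HEXIM1, whose transcript BET inhibitors are known to raise, departed from the rest of the group in 2 libraries. Control replicate 2 held 135 CPM of HEXIM1 while the other controls held 70.0 to 77.4. I-BET762 replicate 2 held 89.6 CPM, above those other controls, while the other I-BET762 libraries held 113 to 149. These 2 libraries are called the libraries labelled control 2 and I-BET762 2, and results that changed without them are given both ways. Whether the 2 libraries were exchanged was not tested; if they were, each control and I-BET762 value below would change. The labels describe the replicates as independent.

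Of the 30 genes, 29 had at least 1 count and 27 passed the filter on low counts. ACADL, the long-chain acyl-CoA dehydrogenase, had 0 to 8 counts per library and ACAD11, which acts on long and very long chains, had 2 to 13, so neither was tested. ECH1, an isomerase for doubly unsaturated intermediates, had 0 counts in all 16 libraries; how reads were assigned to genes is not given in the sources used here, so this 0 was not read as absence of the transcript. CPT1B passed the filter with only 4 to 13 counts, and 66.4% of its exon bases are shared with the read-through gene CHKB-CPT1B, which had 1 to 5 counts.

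Per kilobase of exon, the highest mean levels over the 16 libraries belonged to enzymes of the mitochondrial spiral. ECHS1, the short-chain enoyl-CoA hydratase, stood at 121 CPM per kilobase, HADHA at 120.3 and ACADVL at 111, and the spread between libraries did not separate them. HADHA and HADHB are the subunits of the trifunctional protein, which carries long chains through the last steps of a round; HADHB stood at 44.8. HSD17B10, a hydroxyacyl-CoA dehydrogenase that also serves branched chains, stood at 51.6 and ETFA at 34.2. HSD17B4, the peroxisomal bifunctional enzyme, reached 18.9, ECI2 16.6 and ACADM, the medium-chain acyl-CoA dehydrogenase, 14.1. Among the CPT1 genes the order was CPT1A at 8.87, CPT1C at 0.621 and CPT1B at 0.153. CPT1A is the form found in liver and most tissues, CPT1B the muscle form and CPT1C the neuronal form. The length is that of all annotated exons together, so a gene with long rare transcripts, such as HADH or ETFB, is set lower on this scale than its main transcript would be.

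The genes that passed a test lie on 6 chromosomes (GRCh38, GENCODE release 29). ACADS (ENSG00000122971) is at chr12:120725735-120740008 (plus strand), CPT1C (ENSG00000169169) at chr19:49690898-49713731 (plus strand) and ETFB (ENSG00000105379) at chr19:51345169-51366418 (minus strand). ECI1 (ENSG00000167969) is at chr16:2239395-2252300 (minus strand), ACADVL (ENSG00000072778) at chr17:7217125-7225273 (plus strand), ACADSB (ENSG00000196177) at chr10:123008979-123058311 (plus strand) and ACOX3 (ENSG00000087008) at chr4:8366282-8440723 (minus strand). Counts are over the exons of each gene, and 1.7% of the exon bases of ACADVL lie opposite exons of DLG4.

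**Figure D1:**
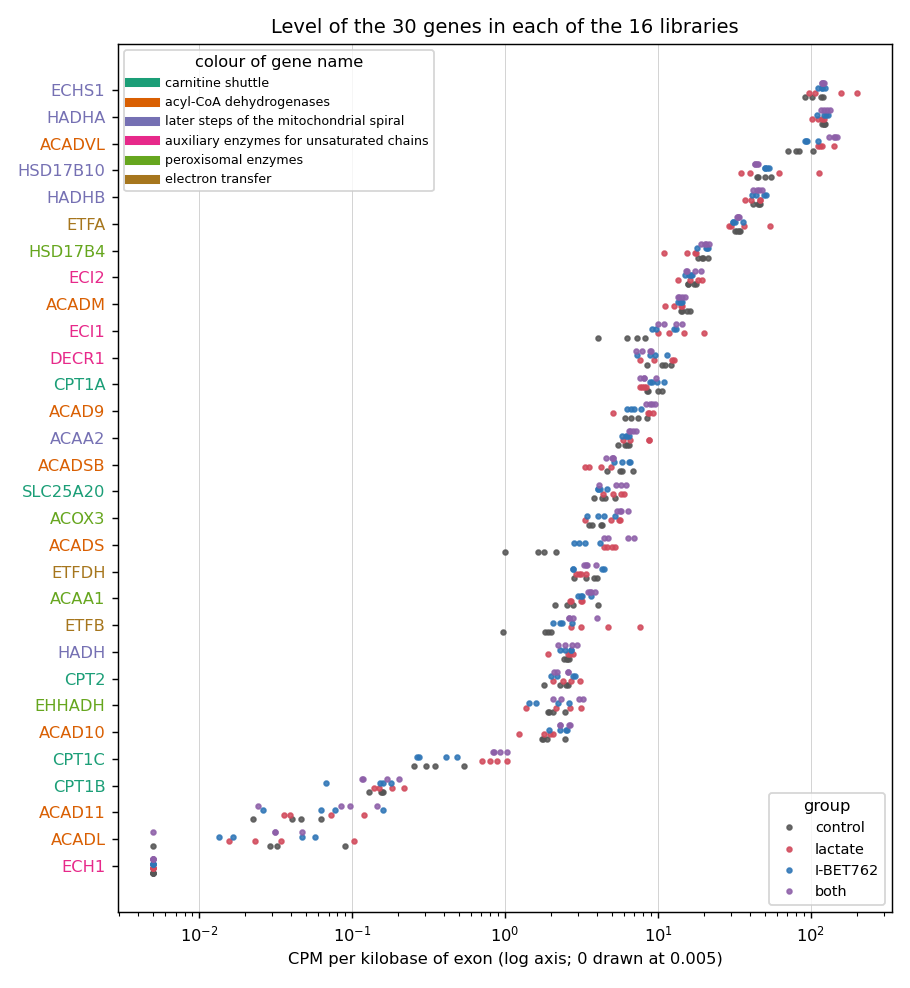
Level of each of the 30 genes in each of the 16 libraries, as CPM per kilobase of annotated exon on a log axis, with 0 drawn at 0.005; colours mark the 4 groups. ECHS1, HADHA and ACADVL lie at the top with means of 121, 120.3 and 111, and CPT1B, ACAD11, ACADL and ECH1 at the bottom.

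The start regions of 5 genes are shown as examples. ACADS, CPT1C and ECI1 rose in the lactate libraries. HADHA and HADHB, which are transcribed away from each other, did not pass the test in any comparison. A relation between these sequences and the levels was not tested. Each sequence runs 5′ to 3′ on the gene's own strand from 250 bases before to 50 bases after a transcription start, from RefSeq on GRCh38.p14, and capitals mark the GC box GGGCGG on either strand. ACADS lies at chr12:120725576-120725875 on the plus strand, CPT1C (the first of 3 listed windows) at chr19:49690866-49691165 on the plus strand, ECI1 at chr16:2251538-2251837 on the minus strand, HADHA at chr2:26244583-26244882 on the minus strand and HADHB at chr2:26244689-26244988 on the plus strand.
ACADS: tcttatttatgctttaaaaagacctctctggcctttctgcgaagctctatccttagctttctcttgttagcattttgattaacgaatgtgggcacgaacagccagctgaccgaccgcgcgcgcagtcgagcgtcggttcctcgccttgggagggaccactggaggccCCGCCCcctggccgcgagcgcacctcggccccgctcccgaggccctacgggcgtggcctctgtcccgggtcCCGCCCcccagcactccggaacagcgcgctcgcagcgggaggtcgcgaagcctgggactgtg
CPT1C: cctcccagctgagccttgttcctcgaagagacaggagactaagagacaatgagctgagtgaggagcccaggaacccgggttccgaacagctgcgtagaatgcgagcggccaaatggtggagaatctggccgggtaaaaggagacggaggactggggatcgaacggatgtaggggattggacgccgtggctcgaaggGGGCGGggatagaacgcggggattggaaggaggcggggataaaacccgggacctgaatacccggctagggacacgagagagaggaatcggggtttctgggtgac
ECI1: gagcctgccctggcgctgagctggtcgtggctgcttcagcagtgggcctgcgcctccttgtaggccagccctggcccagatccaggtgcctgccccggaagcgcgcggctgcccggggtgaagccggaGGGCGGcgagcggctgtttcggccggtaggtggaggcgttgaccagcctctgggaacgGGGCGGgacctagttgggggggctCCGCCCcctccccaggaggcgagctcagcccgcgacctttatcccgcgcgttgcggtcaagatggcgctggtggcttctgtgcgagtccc
HADHA: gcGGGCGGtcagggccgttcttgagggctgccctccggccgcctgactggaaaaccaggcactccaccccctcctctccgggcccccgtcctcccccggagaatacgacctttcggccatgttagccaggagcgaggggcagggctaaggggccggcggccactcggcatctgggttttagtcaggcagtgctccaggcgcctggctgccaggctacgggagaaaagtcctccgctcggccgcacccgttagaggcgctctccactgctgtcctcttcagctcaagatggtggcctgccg
HADHB: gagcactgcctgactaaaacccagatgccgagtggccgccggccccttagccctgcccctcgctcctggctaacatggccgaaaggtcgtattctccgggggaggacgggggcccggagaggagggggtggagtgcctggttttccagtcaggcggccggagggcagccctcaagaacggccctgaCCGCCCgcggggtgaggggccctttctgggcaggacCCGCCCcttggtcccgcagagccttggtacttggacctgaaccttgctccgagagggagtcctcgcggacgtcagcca

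The windows of HADHA and HADHB share 194 bases, and the starts lie 307 bases apart. GC content was 64.0% in the ACADS window, 59.7% in that of CPT1C, 71.7% in that of ECI1, 67.7% in that of HADHA and 68.0% in that of HADHB, against a median of 58.7% over all 35116 windows of this length. Windows were listed for 23 of the 30 genes. Several of them have more than 1, which makes 31 windows. Some windows of the same gene overlap, as for HSD17B10 and ECI2, so the 31 are not separate. On either strand, the GC box was found in 25 of these 31 windows (20 genes) and in 45% of all windows. The windows compared were not matched for GC content, so this share was not read as a trait of these genes. The letters CCAAT were found in 7 of the 31 (34.6% of all windows) and ACGTG, the core of the hypoxia response element, in 7 (21.4%). CACGTG, an E-box that contains ACGTG, was found in 1, of ACAD9 (7.26%), and TGACGTCA, the cyclic AMP response element, in 3, of ACAD9 and ACOX3 (1.85%). No window of these genes held the repeat of AGGTCA after 1 base of any kind, bound by PPAR with RXR (0.0228% of all windows), or TCAAGGTCA, a site of estrogen-related receptors (0.353%). A match describes letters in a window and not a binding site.

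Lactate against control asks how the genes stand when lactate is the only addition. ACADS, the short-chain acyl-CoA dehydrogenase, was 2.95-fold higher with lactate, and ETFB, the small subunit of electron transfer flavoprotein, was 2.69-fold higher. CPT1C was 2.36-fold higher, ECI1, a mitochondrial isomerase for unsaturated chains, 2.18-fold, and ACADVL, the very-long-chain acyl-CoA dehydrogenase, 1.43-fold. ACADSB, which oxidises short branched acyl-CoA from isoleucine, fell to 0.702 of the control level. The other 21 tested genes, CPT1A, CPT2 and the trifunctional protein genes among them, did not pass the test. A gene was called at an adjusted p under 0.05 in edgeR's quasi-likelihood test, with Benjamini-Hochberg adjustment over all 14690 tested genes. In these bulk libraries, fewer cells that express a gene and less RNA of it per cell cannot be told apart.

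The share of called genes, 22.2% of 27, was near that of all tested genes, 23.7%; of all genes 13.6% were called higher and 10.1% lower. The median log2 fold change of the 27 genes was 0.16, and that of all tested genes 0.03. Groups did not overlap, with lactate higher, for 5 of the 27 genes and for 10.9% of all genes. With lactate lower they did not overlap for CPT1A and HSD17B4, against 9.12% of all genes.

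Of the 5 genes listed under the carnitine shuttle, CPT1C alone was called, and CPT1A, CPT2, SLC25A20 and CPT1B were not. CPT1C is placed here by name, and its enzyme activity was not measured. CPT1C had 3.18, 2.05, 1.77 and 1.49 CPM in control replicates 1 to 4 and 4.68, 5.16, 6.06 and 4.17 CPM with lactate. Every lactate library stood above every control library (log2 fold change 1.24, SE 0.24, adjusted p = 0.00273). These are 21 to 107 counts per library over all groups, so the level is low. CPT1A had 65.2, 70.0, 55.5 and 56.1 CPM in control and 51.6, 50.3, 53.3 and 54.8 with lactate. Each lactate library lay below each control library, but the difference of -0.23 (95% interval -0.46 to -0.01) did not pass the test (adjusted p = 0.117). The log2 differences of CPT2, SLC25A20 and CPT1B were 0.16, 0.24 and 0.19, none called.

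Among the acyl-CoA dehydrogenases, 2 of the 6 tested genes rose and 1 fell. ACADS had 4.32, 5.69, 2.63 and 4.75 CPM in control and 13.3, 11.8, 13.8 and 12.2 CPM with lactate. The lowest lactate library lay above the highest control library by more than the range of the controls (log2 fold change 1.56, SE 0.21, adjusted p = 0.000323). ACADVL had 408, 503, 342 and 392 CPM in control and 542, 558, 575 and 685 with lactate. The groups did not overlap, and the control nearest to them was the library labelled control 2 (log2 fold change 0.52, SE 0.12, adjusted p = 0.00655). ACADSB had 36.5, 42.7, 35.2 and 29.01 CPM in control and 22.3, 30.9, 26.3 and 20.9 CPM with lactate. Here the groups overlapped, since lactate replicate 2 exceeded control replicate 4 (log2 fold change -0.51, SE 0.14, adjusted p = 0.0158). ACADM, ACAD9, an assembly factor of complex I as well as a dehydrogenase, and ACAD10 had log2 differences of -0.20, 0.15 and -0.14, none called.

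None of the 6 genes of the later mitochondrial steps passed the test. HADHA had 522, 532, 546 and 531 CPM in control and 445, 484, 518 and 536 with lactate, a log2 difference of -0.10 with a 95% interval of -0.29 to 0.09. HADHB, its partner, differed by -0.07 (95% interval -0.28 to 0.14), and HADH, the hydroxyacyl-CoA dehydrogenase for shorter chains, by -0.03 (-0.29 to 0.24). For these subunits and HADH the intervals exclude a log2 difference as large as that of ACADVL. HSD17B10 had 55.6, 49.2, 49.98 and 61.3 CPM in control and 126, 38.8, 44.5 and 69.3 with lactate. Lactate replicates 1 and 4 lay above all controls and replicates 2 and 3 below all of them. Without lactate replicates 1 and 4 its log2 difference was -0.37 in place of 0.36. These libraries were left out after the data had been seen, and the lactate libraries kept lie below all controls. The choice of libraries thus set the sign, and this is not a test of a fall. In ECHS1 replicates 1 and 4 were again high, with 325, 157, 171 and 254 CPM with lactate against 148 to 195 in control, and ACAA2, the mitochondrial thiolase, had 44.2, 29.8, 33.3 and 44.3 CPM against 27.8 to 32.6. ACAA2 and ECHS1 were called higher without lactate replicate 2, when 9 genes passed in place of 6. The same fit called 4950 of all 14870 genes tested in it. ECHS1 was also called without lactate replicate 3, when 3993 of all 14849 tested genes were called.

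Of the auxiliary enzymes for unsaturated chains, ECI1 rose and ECI2 and DECR1 were not called. ECI1 had 20.4, 23.6, 13.1 and 26.5 CPM in control and 64.5, 32.1, 38.3 and 47.9 CPM with lactate. All lactate libraries were above all controls, and replicate 1 was the highest (log2 fold change 1.13, SE 0.23, adjusted p = 0.00329). ECI2, the isomerase found in peroxisomes as well, differed by 0.03, and DECR1, the mitochondrial dienoyl-CoA reductase, by -0.01.

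In the electron transfer step, ETFB rose and ETFA and ETFDH were not called. ETFB had 11.9, 12.5, 6.30 and 13.0 CPM in control and 49.7, 17.6, 20.6 and 30.5 CPM with lactate. The groups did not overlap, yet lactate replicate 1 stood far above replicates 2 and 3 (log2 fold change 1.43, SE 0.28, adjusted p = 0.00302). Without lactate replicate 1 the log2 fold change of ETFB was 1.06 (adjusted p = 0.00377), and without lactate replicates 1 and 4 it was 0.81 (adjusted p = 0.0218). ETFA, which forms the flavoprotein with ETFB, had 172, 166, 159.9 and 169 CPM in control and 270.3, 146, 152 and 185 with lactate. Lactate replicates 1 and 4 stood above the controls and replicates 2 and 3 below them, with a log2 difference of 0.17 (adjusted p = 0.387). ETFDH, the ubiquinone oxidoreductase, differed by -0.17.

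None of the 4 peroxisomal genes was called with lactate. HSD17B4 had 207, 227, 209 and 194 CPM in control and 117, 188, 187 and 166 with lactate. Every lactate library was lower, replicate 1 by the most, and the log2 difference of -0.35 had an adjusted p of 0.0536. ACOX3, an oxidase for branched chains, ACAA1, the peroxisomal thiolase, and EHHADH, the other bifunctional enzyme, had log2 differences of 0.31, 0.02 and 0.16.

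**Figure D2:**
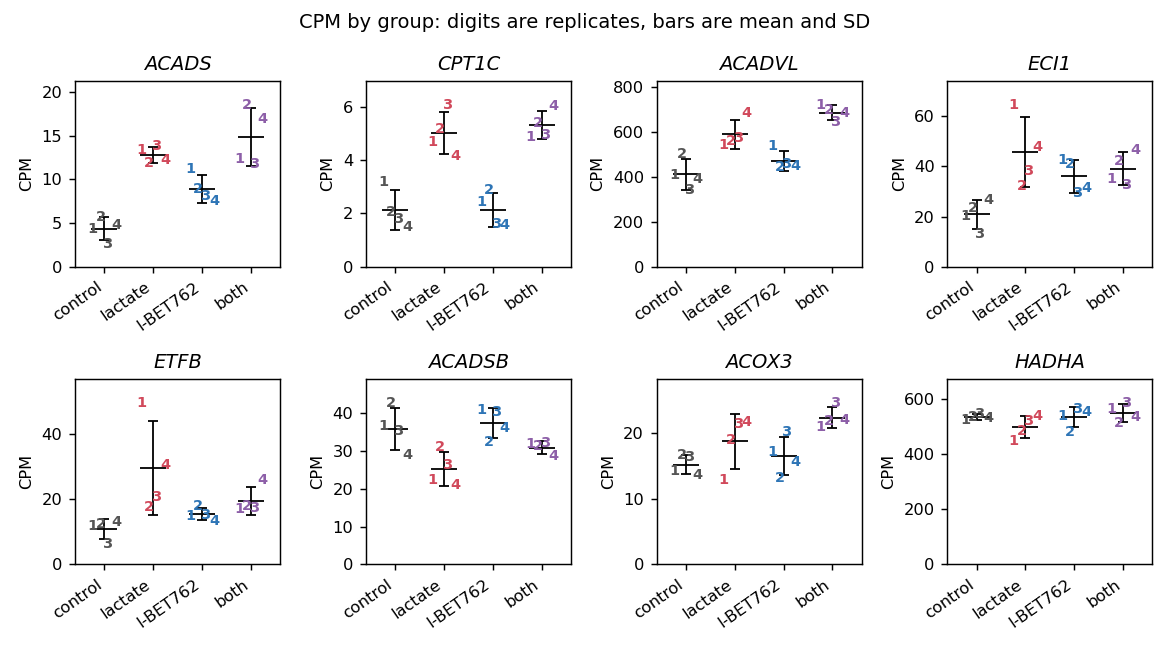
CPM of 8 genes by group; each digit is the replicate with that number, bars give mean and SD (n = 4), and axes start at 0. ACADS, CPT1C, ACADVL, ECI1 and ETFB are higher with lactate than in control in every replicate, and HADHA stays between 445 and 585 CPM in all 16 libraries.

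The libraries also differed in how expression followed base composition. Across genes within a library, Spearman's rho between transcript GC content and a gene's deviation from its mean was -0.552 to -0.296 in control and -0.016 to 0.317 with lactate. For the I-BET762 libraries rho lay between -0.184 and 0.172, and for the combination between 0.06 and 0.43. Over the 27 genes, rho between the lactate fold change and GC content was 0.664, and over all tested genes 0.432; genes share libraries, so this is a description. The longest transcript of ACADS has a GC content of 64.6%, that of ECI1 61.4%, ACADVL 58.8%, CPT1C 57.6% and ETFB 48.7%. ACADSB has 38.9% and HSD17B4 38.6%, and the median of the tested genes was 48.1%.

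The relation to gene length set apart the same lactate replicates that were high for HSD17B10, ECHS1, ETFA and ETFB. Spearman's rho between exon length and a gene's deviation was -0.397 in lactate replicate 1 and -0.416 in replicate 4, against 0.237 and 0.097 in replicates 2 and 3 and 0.028 to 0.27 in control. Over the 27 genes, rho between the lactate fold change and exon length was -0.435, and over all tested genes -0.337. After a correction for GC content and exon length together, the log2 difference with lactate was 1.66 for ETFB (adjusted p = 0.00374) and 0.37 for ETFA (0.104). It was -0.09 for HSD17B10 (0.74) and -0.12 for ECHS1 (0.519), the opposite sign to the uncorrected differences of 0.36 and 0.39. ACADVL was called in this fit, at 0.33 (0.0377). The corrections here and below take all annotated exons together for length and the longest transcript for GC content. ETFB has long rare transcripts, so these may not describe its main transcript, and its corrected values carry this limit.

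After a correction for GC content, ACADS remained higher with lactate at a log2 fold change of 0.98 (adjusted p = 0.000918), CPT1C at 1.06 (0.00924), ECI1 at 0.78 (0.0202) and ETFB at 1.51 (0.0039). ACADVL at 0.28 (0.0788) and ACADSB at -0.30 (0.134) were no longer called, and ACAA2 at 0.44 (0.0236) was. The same correction called 1939 of all genes, 1378 higher and 561 lower, in place of 3486, 2003 higher and 1483 lower. Fitted on the control and lactate libraries alone, 4 of the 27 genes were called: ACADS, CPT1C, ECI1 and ETFB. That fit called 889 of all 14052 genes tested in it. Without the libraries labelled control 2 and I-BET762 2, 5 of the 27 were called, beside 2579 of all 14897 genes. ACADSB had an adjusted p of 0.0503 there, and it was also lost without lactate replicate 4.

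**Figure D3:**
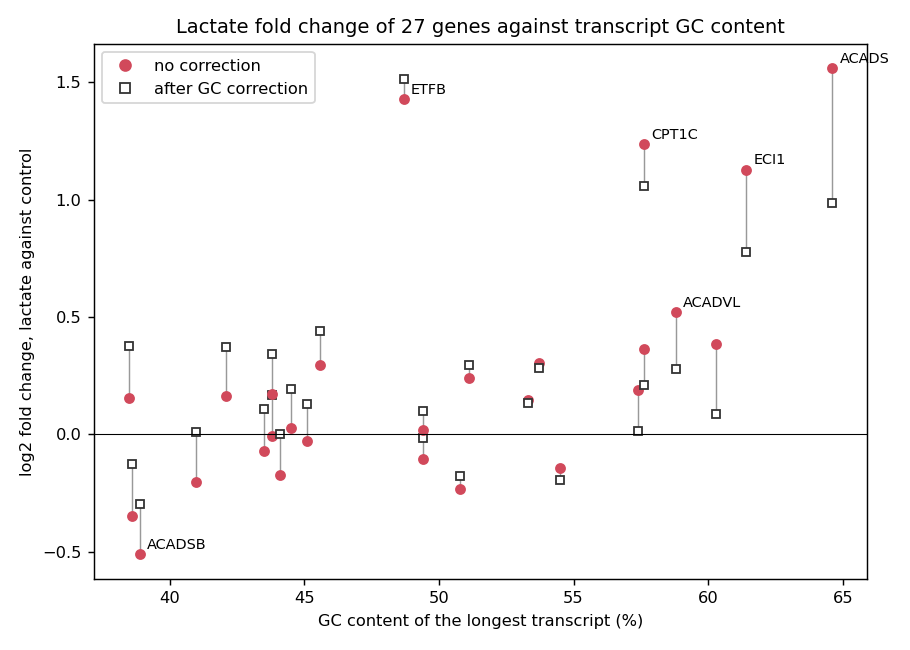
Log2 fold change of the 27 tested genes with lactate against control, on the GC content of each gene's longest transcript in percent; filled points are uncorrected, open squares follow the GC correction and grey lines join them. ACADS, at 64.6% GC, moves from 1.56 to 0.98, and ETFB, at 48.7%, from 1.43 to 1.51.

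I-BET762 against control gives the inhibitor without added lactate. ACADS was the 1 gene of the 27 called, 2.05-fold higher, and none was lower. ACADS had 4.32, 5.69, 2.63 and 4.75 CPM in control and 11.1, 8.87, 8.08 and 7.46 CPM with I-BET762. All 4 inhibitor libraries stood above all controls (log2 fold change 1.03, SE 0.21, adjusted p = 0.0473). ECI1 had 42.5, 41.1, 29.5 and 31.3 CPM and ETFB 14.9, 17.9, 15.3 and 13.5 CPM with the inhibitor, again above every control. Their log2 differences of 0.79 (95% interval 0.31 to 1.26, adjusted p = 0.1) and 0.49 (-0.11 to 1.09, 0.593) were not called.

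These 3 genes make up the non-overlapping ones among the 27, all with the inhibitor higher, against 7.73% of all genes higher and 3.04% lower. Of all tested genes, 0.442% were called, 0.442% higher and 0 lower, and 11.4% had an unadjusted p under 0.05, as did 2 of the 27, ACADS and ECI1. The called share of 3.70% of the 27 stands for 1 gene. The median log2 fold change was 0.04 for the 27 genes and -0.03 for all genes. CPT1A, with 61.7 ± 7.11 CPM in control and 63.7 ± 5.99 (SD, n = 4) with I-BET762, differed by 0.05 (95% interval -0.18 to 0.27). For CPT1C the difference was -0.03 (-0.56 to 0.51) and for HADHA 0.00 (-0.19 to 0.19), so the interval for CPT1C excludes a rise as large as that with lactate. The ACADS call was near the threshold: it was kept only without control replicate 4, lactate replicate 1, I-BET762 replicate 4 or both-treatment replicate 3, and lost without any other of the 16 libraries (adjusted p up to 0.217), after the GC correction (0.54, adjusted p = 0.327), and without the libraries labelled control 2 and I-BET762 2 (1.19, adjusted p = 0.057). DESeq2 called ACADS and ECI1, beside 542 of all 14690 genes, and limma-voom called none of the 27 and 0 of all genes.

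**Figure D4:**
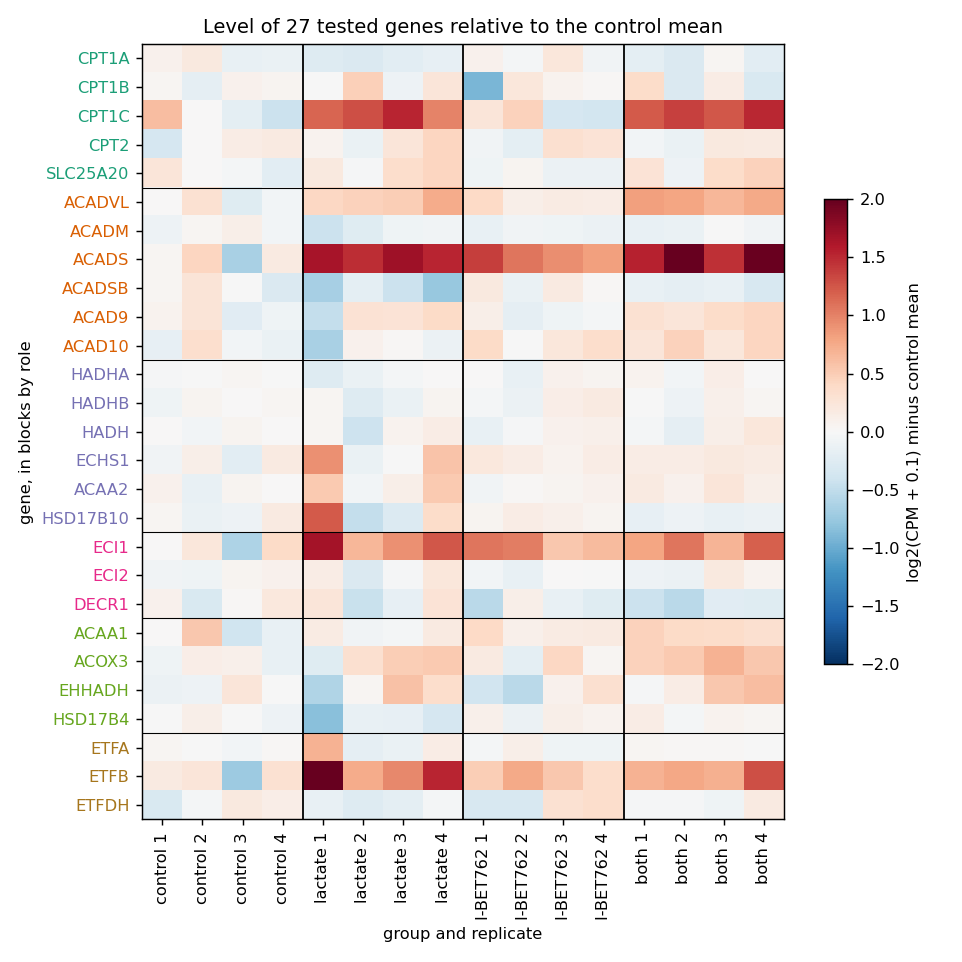
Level of the 27 tested genes in each library, as log2(CPM + 0.1) minus the control mean of that gene, with genes in blocks by role and libraries by group; the colour scale ends at -2 and 2. ACADS, CPT1C, ECI1, ETFB and ACADVL stand out in the lactate columns, and lactate replicate 1 departs from its group for HSD17B10, ECHS1, HSD17B4 and ACAD10.

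Both treatments against I-BET762 gives the effect of lactate on cells that carry the inhibitor, and shares no library with lactate against control. CPT1C, ACADS and ACADVL were called higher, 2.53-fold, 1.67-fold and 1.45-fold, and no gene of the 27 was called lower. All 3 were also among the 6 called with lactate alone. CPT1C had 2.42, 2.86, 1.60 and 1.55 CPM with I-BET762 and 4.88, 5.40, 4.95 and 6.01 CPM with both. The lowest library with both lay above the highest with the inhibitor (log2 fold change 1.34, SE 0.24, adjusted p = 0.00435). ACADVL had 539, 443, 458 and 450.1 CPM with I-BET762 and 720.1, 700.2, 643 and 686 CPM with both. Replicate 1 was the highest inhibitor library and still below each library with both (log2 fold change 0.54, SE 0.12, adjusted p = 0.0145). ACADS had 12.4, 18.5, 11.7 and 16.9 CPM with both, above the 7.46 to 11.1 CPM of the inhibitor libraries (log2 fold change 0.74, SE 0.20, adjusted p = 0.0419).

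The called share was 11.1% of the 27 genes and 4.90% of all genes, of which 3.34% were higher and 1.57% lower. Groups did not overlap for 6 genes with both higher, the 3 called ones with ACAD9, ACAA2 and ACOX3, against 11.2% of all genes. They did not overlap for ACADSB and HSD17B10 with both lower, against 11.3% of all genes. The median log2 fold change was 0.07 for the 27 genes and 0.00 for all genes. ECI1 and ETFB, called with lactate alone, differed here by 0.12 (95% interval -0.35 to 0.59) and 0.35 (-0.24 to 0.93). The ACADS call was lost without any 1 of 8 libraries (adjusted p up to 0.144) and without the libraries labelled control 2 and I-BET762 2 (0.74, adjusted p = 0.0789). The 8 were control replicates 1 and 4, lactate replicate 4, I-BET762 replicates 2, 3 and 4, and replicates 2 and 4 with both. Fitted on the I-BET762 and combination libraries alone, 6 of the 27 genes were called, ACAD9 and ACOX3 also higher and HSD17B10 lower. That fit called 2535 of all 14058 genes tested in it. Without lactate replicate 1, which enters only the shared spread, 5 of the 27 were called, beside 1672 of all 14841 genes. Without I-BET762 replicate 3 or replicate 4 CPT1C was the 1 call left, beside 347 of all 14887 genes and 307 of all 14893.

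Both treatments against lactate gives the effect of the inhibitor on cells that have lactate. No gene of the 27 was called by edgeR, DESeq2 or limma-voom, and edgeR called 0 of all 14690 genes, 0 higher and 0 lower. At an unadjusted p under 0.05 there were 4 of the 27 genes, against 15.6% of all genes. HSD17B4, the peroxisomal bifunctional enzyme, had 117, 188, 187 and 166 CPM with lactate and 231, 204, 218 and 216 with both. Each library with both was above each lactate library and near the control range of 194 to 227 CPM (log2 difference 0.40, 95% interval 0.14 to 0.67, adjusted p = 0.237). ACAD10, a poorly characterised dehydrogenase of this family, had 10.98, 18.4, 17.7 and 15.9 CPM with lactate and 20.5, 23.7, 20.4 and 23.3 with both. It too did not overlap (log2 difference 0.48, adjusted p = 0.259), as did ACAA1 at 0.33 (adjusted p = 0.323). Non-overlap with both higher held for these 3 genes and 3.82% of all genes, and with both lower for 0 of the 27 and 3.78% of all genes. ACADSB at 0.30 and ETFB at -0.59 were the other genes with an unadjusted p under 0.05. For ACADS the difference was 0.22 (95% interval -0.20 to 0.64), for CPT1C 0.08 (-0.40 to 0.55) and for CPT1A 0.07 (-0.16 to 0.30).

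Both treatments against control called 6 of the 27 genes, all higher: ACADS 3.42-fold, CPT1C 2.49-fold, ECI1 1.87-fold, ETFB 1.79-fold, ACADVL 1.67-fold and ACOX3 1.47-fold. This comparison shares its control libraries with the 2 single treatments. The called share was 22.2% of the 27 genes and 20.7% of all genes, of which 13.0% were higher and 7.72% lower. ACADS stood at 4.35 ± 1.28 CPM in control and 14.9 ± 3.33 CPM with the combination (SD, n = 4; log2 fold change 1.78, SE 0.21, adjusted p = 9.87e-05). ACADVL stood at 411 ± 67.1 and 687 ± 32.5 CPM (log2 fold change 0.74, SE 0.12, adjusted p = 0.000638). CPT1C had a log2 fold change of 1.31 (SE 0.24, adjusted p = 0.00147) and ECI1, with 35.1, 42.4, 32.4 and 46.6 CPM, one of 0.91 (SE 0.23, adjusted p = 0.01).

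ACOX3 had 14.2, 16.6, 16.3 and 13.6 CPM in control and 20.8, 21.8, 24.6 and 21.9 CPM with both. All libraries with both were above all controls (log2 fold change 0.55, SE 0.16, adjusted p = 0.0231), and the single treatments lay between, at 18.7 ± 4.13 CPM with lactate and 16.5 ± 2.93 with I-BET762. ETFB, at 17.1, 18.1, 17.2 and 25.9 CPM with both, was just past the threshold (log2 fold change 0.84, SE 0.28, adjusted p = 0.0437). Replicate 4 stood above the other 3, and the call was lost without any 1 library except control replicate 4 and lactate replicates 1, 2 and 3 (adjusted p up to 0.148). The ACOX3 call was lost without control replicate 1 or 4 or both-treatment replicate 3 or 4 (adjusted p up to 0.0644). Groups did not overlap for the 6 called genes and ACAA2 with both higher, against 16.5% of all genes, and for 0 of the 27 with both lower, against 14.8%. DECR1 at -0.36 (95% interval -0.72 to -0.01, adjusted p = 0.141) was the lowest. After the GC correction ECI1 was no longer called (0.48, adjusted p = 0.142). Without the libraries labelled control 2 and I-BET762 2 the 6 called genes included ACAA1 and not ETFB, beside 3001 called of all 14897 genes.

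**Figure D5:**
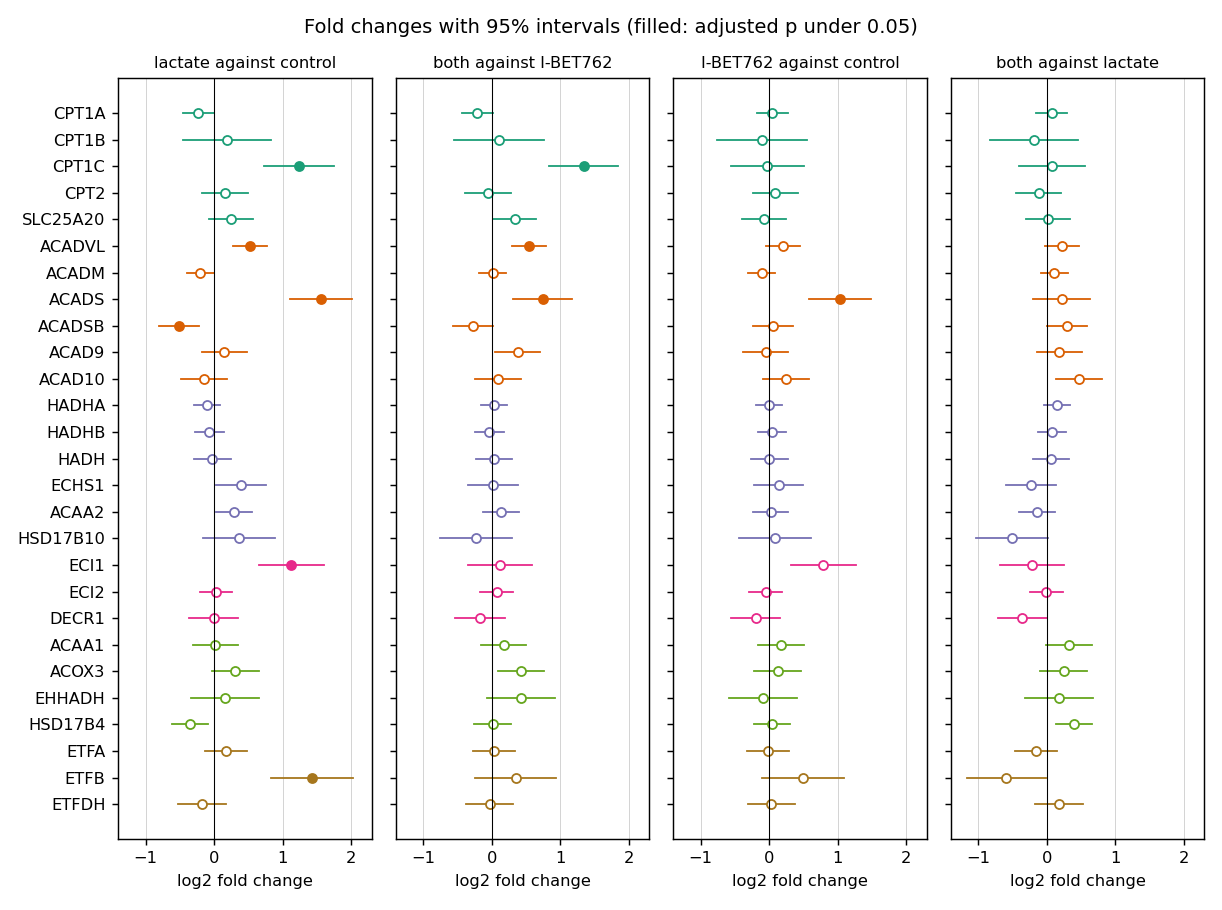
Log2 fold changes of the 27 tested genes in 4 comparisons (lactate against control, both against I-BET762, I-BET762 against control, both against lactate) with 95% intervals from edgeR; filled points have an adjusted p under 0.05. CPT1C, ACADS and ACADVL are filled where lactate is added with or without the inhibitor, ACADS alone is filled for I-BET762, and no point is filled for both against lactate.

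Whether lactate acted differently with the inhibitor was tested as an interaction, the lactate effect with I-BET762 minus that without it. No gene of the 27 was called by edgeR, DESeq2 or limma-voom, and edgeR called 0 of all genes, 0 higher and 0 lower, with 6.09% at an unadjusted p under 0.05. Of the 27 genes 3 were at that level, each with a smaller rise under the inhibitor. The difference of log2 fold changes was -1.08 for ETFB (95% interval -1.91 to -0.25), -1.01 for ECI1 (-1.68 to -0.34) and -0.82 for ACADS (-1.43 to -0.20). In edgeR's test the unadjusted p was 0.0141, 0.00534 and 0.0122, and the adjusted p was 0.7 for each. For CPT1C it was 0.10 (-0.61 to 0.82) and for ACADVL 0.02 (-0.33 to 0.37). Without lactate replicates 1 and 4 the differences of ETFB, ECI1 and ACADS were -0.47, -0.65 and -0.84, so those of ETFB and ECI1 moved by more than 1.5 times.

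Variation among replicates was largest in the lactate group. The median coefficient of variation of the 27 genes was 17.96% with lactate, 12.41% in control, 9.39% with I-BET762 and 8.16% with both. Lactate replicate 4 held the highest level of its group for 15 of the 27 genes and replicate 2 the lowest for 16. Lactate replicate 1 was the highest for 5 genes, HSD17B10, ECHS1, ETFA, ETFB and ECI1 among them, and the lowest for 8.

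A further 46 genes of the pathway, from carnitine supply to regulators, were taken from a list; 39 were tested. BBOX1, which completes carnitine synthesis, and DECR2, a peroxisomal dienoyl-CoA reductase, had 0 counts in every library, and ACACA, which makes the malonyl-CoA that blocks CPT1, had at most 9 counts; these were not read as absence. With lactate 6 of the 39 rose and 3 fell, a called share of 23.1% beside 23.7% of all tested genes. SLC22A5, the plasma membrane carnitine transporter, had 31.1, 32.9, 35.8 and 32.9 CPM in control and 24.1, 26.5, 22.5 and 20.3 CPM with lactate. No lactate library reached a control one (log2 fold change -0.51, SE 0.10, adjusted p = 0.00339). ALDH9A1, which takes part in carnitine synthesis, fell by 0.34 on the log2 scale (adjusted p = 0.0167) and ABCD3, a peroxisomal fatty acid transporter, fell by 0.38 (adjusted p = 0.0156). SLC25A29, a mitochondrial carrier of basic amino acids first described as a carnitine carrier, rose by 0.56 (adjusted p = 0.0216). ACOT8, a peroxisomal thioesterase, rose by 0.91 (adjusted p = 0.00553).

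With I-BET762 alone edgeR called 0 of the 39, beside 0.442% of all genes. An unadjusted p under 0.05 was found for 6 of the 39 and for 11.4% of all genes. Both treatments against I-BET762 again gave a fall of SLC22A5, from 30.4, 29.3, 33.5 and 33.2 CPM to 23.7, 23.9, 23.1 and 24.1 CPM. It was the 1 gene of the 39 called lower; with 1 called higher the share was 5.13%, beside 4.90% of all genes. Its groups did not overlap (log2 fold change -0.41, SE 0.10, adjusted p = 0.0259). Both against lactate gave 0 calls, with 9 of the 39 and 15.6% of all genes at an unadjusted p under 0.05. The interaction gave 0 calls, with 4 of the 39 and 6.09% of all genes at that level.

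Both treatments against control gave 7 higher and 2 lower of the 39, a called share of 23.1% beside 20.7% of all tested genes. CRAT, carnitine acetyltransferase, had 64.3, 66.7, 52.7 and 58.3 CPM in control and 96.3, 105, 93.8 and 103 CPM with both. The groups were apart (log2 fold change 0.72, SE 0.14, adjusted p = 0.00239). SLC25A29 rose by 0.81 (adjusted p = 0.00272) and GCDH, glutaryl-CoA dehydrogenase, by 0.92 (adjusted p = 0.0073). SLC22A5 fell by 0.48 (adjusted p = 0.00362). ACOX2, a peroxisomal oxidase for bile acid intermediates and branched chains, had 6.04, 3.34, 8.21 and 10.9 CPM in control and 1.93, 2.70, 3.37 and 3.14 with both, with the library labelled control 2 inside the range of the treated ones (log2 fold change -1.35, adjusted p = 0.0133).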

How the data were processed

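Polyadenylated RNA of 16 DU145 libraries was sequenced from 1 end with a strand-specific kit, per the labels' protocols. The submitters' processing notes name STAR 2.6.1c, DESeq, hg38 and GRCh38.p12; the counting tool and its strand setting were not given in the sources used here. The values are whole-number read counts per gene, not normalized, as the authors deposited them in 1 table.

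Counts of genes in the filter of edgeR 4.0.16 (filterByExpr, minimum count 10, minimum total 15) were fitted in 1 quasi-likelihood model of 4 group means with TMM library sizes, under R 4.3.3. The 14690 tested genes took 99.821% or more of each library's counts. Tests were two-sided with Benjamini-Hochberg adjustment over all tested genes and a threshold of 0.05. CPM are counts scaled by the TMM library size; exon lengths, GC content and coordinates come from GENCODE release 29. The GC correction is an offset from a spline of each library on transcript GC content (5 degrees of freedom). The procedure was tested on simulated data.

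Alternatives were other scalings and filters, DESeq2 1.42.0, limma-voom (limma 3.58.1), a replicate block, corrections for GC content and exon length, each library left out, the libraries labelled control 2 and I-BET762 2 left out together, and the compared groups fitted alone. Lactate replicates 1 and 4 were left out together after the data had been seen. The genes, lists and tests were chosen with earlier results of these data known. All 30 genes are named; of the 46 related genes, up to 6 called ones with the smallest p per comparison are named, besides those with 0 or few counts; a few items that fall under this rule are not reported here. At 10711859 to 17173584 counts per library, a gene at 1 CPM rests on under 20 counts.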

Additional observations from a re-analysis of the deposited data

Results flagged for a closer look

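In 5 of 108 combinations of a tested gene and a group, 1 of the 4 replicates stood apart from the other 3 by more than Dixon's 95% critical value for the gap over the range; chance alone gives about 1 in 20. ETFB was at 6.305 CPM in control replicate 3, against 11.95 to 12.979 in the other controls, and at 25.889 CPM in replicate 4 with both treatments, against 17.12 to 18.063. ACADVL was at 538.73 CPM in I-BET762 replicate 1, against 443 to 458 in the others. SLC25A20 was at 9.163 CPM in the library labelled I-BET762 2, against 8.077 to 8.229. CPT1B, with 4 to 13 counts per library, was at 0.531 CPM in the library labelled control 2, against 0.636 to 0.657.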

How the results depend on the processing

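Of the 27 genes, 6 were called with lactate in the reported fit, 4 with the 2 groups fitted alone, 7 under DESeq2 and under limma-voom, and 5 to 9 with 1 library left out. For I-BET762 the 1 call became 0 with total counts, limma-voom, the GC correction, the replicate block with GC correction, the GC and length correction, and control 2 and I-BET762 2 left out. It became 2 with no filter, under DESeq2 and with lactate 1 and 4 left out, and lay between 0 and 2 with 1 library left out. For both against I-BET762 the 3 calls became 5 with lactate 1 and 4 left out, 6 with the groups alone and 1 to 5 with 1 library left out. Both against control gave 4 to 7 of 27 with 1 library left out, and both against lactate and the interaction gave 0 in every setting run. Over 461 settings of 16 called gene results, 400 kept the call, 61 lost it and 0 changed direction; the cause was not tested.

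Of all genes, the 3486 called with lactate became 1939 (GC correction), 2242 (GC and length) and 889 (groups alone). The count rose to 4225 (DESeq2) and 4244 (replicate block). On leaving out 1 library it lay between 1839 (without control 3) and 4950 (without lactate 2), with 2102 without lactate 4. For I-BET762 the 65 became 0 (total counts, limma-voom and each GC setting), 10 (control 2 and I-BET762 2 out), 133 (at least 5 CPM), 206 (block), 492 (no filter), 496 (groups alone), 542 (DESeq2) and 815 (lactate 1 and 4 out), with 0 to 516 on leaving out 1 library. For both against I-BET762 the 720 became 469 (control 2 and I-BET762 2 out), 1111 (GC and length), 1250 (DESeq2), 2280 (lactate 1 and 4 out) and 2535 (groups alone), with 285 to 1672. For both against control the 3045 became 1642 (GC), 4709 (groups alone) and 5402 (lactate 1 and 4 out), with 1704 to 4639. For both against lactate the 0 became 197 (no filter), 103 (DESeq2), 60 (control 2 and I-BET762 2 out) and 2 (groups alone), and for the interaction 3 (no filter).

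Same-numbered libraries did not deviate together throughout: of 24 pairs 16 had a correlation over 0.1 (median 0.172, range -0.26 to 0.421), against 19 of 72 pairs with other numbers (median -0.077). The -0.26 is the pair of the libraries labelled control 2 and I-BET762 2. The labels state no block, so the reported fit took none, although same-numbered libraries correlated more than others. Whether they shared a batch was not tested. A replicate block called 4244 of all genes in place of 3486 with lactate, and 206 in place of 65 with I-BET762. With a replicate block the calls among the 27 genes stayed at 6 (lactate), 1 (I-BET762), 3 (both against I-BET762), 0 (both against lactate), 6 (both against control) and 0 (interaction). CPT1C could not be tested at a mean of at least 5 CPM. CPT1B, ACAD11, ACADL and ECH1 are limited by depth, at 13 counts or fewer per library.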
